A study of Homo sapiens with 8 samples.

Results

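The clade B serpins are the intracellular branch of the serpin family of protease inhibitors, and 6 of them were followed through all 8 RNA-seq libraries of the study: SERPINB3, SERPINB4, SERPINB8, SERPINB9, SERPINB1 and SERPINB6. They were taken by gene symbol from 20344 genes held by either of the 2 deposited tables. The family was chosen by the large rise of SERPINB3 and SERPINB4 after ETV4 knockdown (KD), so for these 2 genes the knockdown values are given as a description without a test. The other 4 members entered as relatives with reads in every library, and the question put to them is whether they rose too.

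A serpin holds out a reactive loop as bait, and when a protease cuts the loop the serpin changes shape and traps the enzyme. Most serpins are secreted, whereas those of clade B lack a classical signal peptide and act largely inside the cell, where they guard it against proteases that leak from lysosomes or granules. SERPINB3 and SERPINB4, the squamous cell carcinoma antigens, are known from stratified epithelium and its tumours, and pluripotent stem cells are not where they are usually studied.

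All libraries came from H9, an established line of human embryonic stem cells (hESCs) grown on Matrigel in mTeSR1 or TeSR-E8 medium. In the crowding experiment, 2 low-density libraries (group small) were compared with 2 high-density libraries (group crowded), for which cells were confined to small Matrigel islands. In the knockdown experiment, 2 libraries with a control short hairpin (group Ctrl, shControl) were compared with 2 libraries with a hairpin against ETV4 (group ETV4 KD, shETV4), an ETS-family transcription factor. H9 is a single line. The sources used here do not say which ETV4 hairpin was sequenced or whether both shETV4 libraries carried the same one. Nor do they say whether the 2 libraries of a group came from separate cultures, so p-values measure only the spread between these libraries.

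The tables held 50359703 to 62410168 reads per library for crowding and 52155822 to 56630652 for the knockdown. ETV4 stood at 90.8 and 95.1 FPKM (sequenced fragments scaled to transcript length and to the mapped reads of the library) with shControl and at 45.6 and 40.9 FPKM with shETV4, a log2 fold change of -1.15 (SE 0.07, adjusted p = 1.60e-04). SE is the standard error of the fit. All adjusted p-values are from the quasi-likelihood test of edgeR with Benjamini-Hochberg adjustment over all genes tested, and a gene was called when the value was below 0.05 and the absolute log2 fold change was over 0.5. The labelled cell type was matched by its markers: all 10 hESC markers examined were present in every library, and the lowest, NANOG, averaged 20.6 FPKM in the crowding table and 22.6 FPKM in the knockdown table. Both tables hold only genes with at least 1 read in every library of the table.

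The members lie in 2 genomic clusters. SERPINB4 (chr18:61304493-61311490), SERPINB3 (chr18:61322431-61329127) and SERPINB8 (chr18:61637263-61687013) belong to a cluster of 10 clade B genes that spans 542.823 kb of chromosome 18, with coordinates from GENCODE release 44 lifted to GRCh37. SERPINB4 and SERPINB3 are on the minus strand and SERPINB8 is on the plus strand. SERPINB1 (chr6:2832566-2842193), SERPINB9 (chr6:2887504-2903543) and SERPINB6 (chr6:2948393-2972399) make up a cluster of 3 genes across 139.834 kb of chromosome 6, all on the minus strand. These 6 are the clade B protein-coding genes found in both tables, out of 13 annotated.

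SERPINB3 and SERPINB4 are near-copies, which bears on how far their reads can be told apart. Their coding sequences are both 1173 bases long and differ at 56 bases, an identity of 95.2%, whereas the next closest pair of members, SERPINB8 and SERPINB9, shared 73.3% of aligned bases. Over a window of 100 bases, the length of a read mate, 57 of the 1608 possible windows of the SERPINB3 transcript (3.54%) occurred without a mismatch in the SERPINB4 transcript. The most different 100-base window of the coding sequence, coding bases 970 to 1069 in exon 8 of 8, held 16 differing bases and is printed to show where reads separate the genes. SERPINB3 is at chr18:61322995-61323094 and SERPINB4 at chr18:61305057-61305156 on the minus strand of GRCh37, 5′ to 3′, with the differing bases in capitals.
SERPINB3: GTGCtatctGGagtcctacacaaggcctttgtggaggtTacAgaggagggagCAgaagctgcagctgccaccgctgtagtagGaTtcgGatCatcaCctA
SERPINB4: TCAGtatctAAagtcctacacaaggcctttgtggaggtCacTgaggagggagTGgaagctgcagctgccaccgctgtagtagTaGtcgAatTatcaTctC

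**Figure D1:**
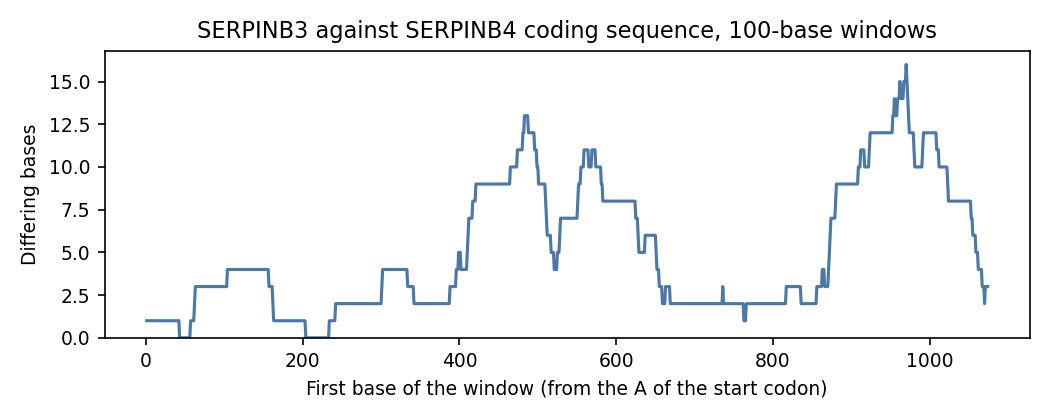
Number of differing bases between SERPINB3 and SERPINB4 in each 100-base window of the coding sequence (y axis), against the first base of the window counted from the start codon (x axis). The count ranged from 0 to 16 with a median of 4, and 44 of the 1074 windows had no difference.

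Levels differed widely between members, and FPKM, which is divided by transcript length, allows genes to be set side by side. At low density SERPINB9 was highest at 10.3 and 11.0 FPKM, followed by SERPINB6 at 8.60 and 9.83 FPKM, SERPINB1 at 2.85 and 2.68 FPKM and SERPINB4 at 1.33 and 1.50 FPKM. SERPINB3, at 0.395 and 0.646 FPKM, and SERPINB8, at 0.550 and 0.436 FPKM, overlapped each other and were lowest. The 3 members of the chromosome 6 cluster were thus above the 3 of the chromosome 18 cluster in the low-density, high-density and shControl groups.

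With shControl the order was SERPINB6 (16.2 ± 0.165 FPKM, SD, n = 2), SERPINB9 (8.86 ± 0.0257), SERPINB1 (6.49 ± 0.351), SERPINB4 (0.322 ± 0.0721), SERPINB8 (0.299 ± 0.0311) and SERPINB3 (0.0698 ± 0.0430). SERPINB4 and SERPINB8 overlapped in this group and in the high-density group. With shETV4, SERPINB4 reached the level of SERPINB1: its 4.49 and 5.85 FPKM enclosed the 5.07 and 5.07 FPKM of SERPINB1. The other neighbours in the order did not overlap in any of the 4 groups. Levels of the 2 experiments come from tables normalized separately, so an order holds within a group.

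**Figure D2:**
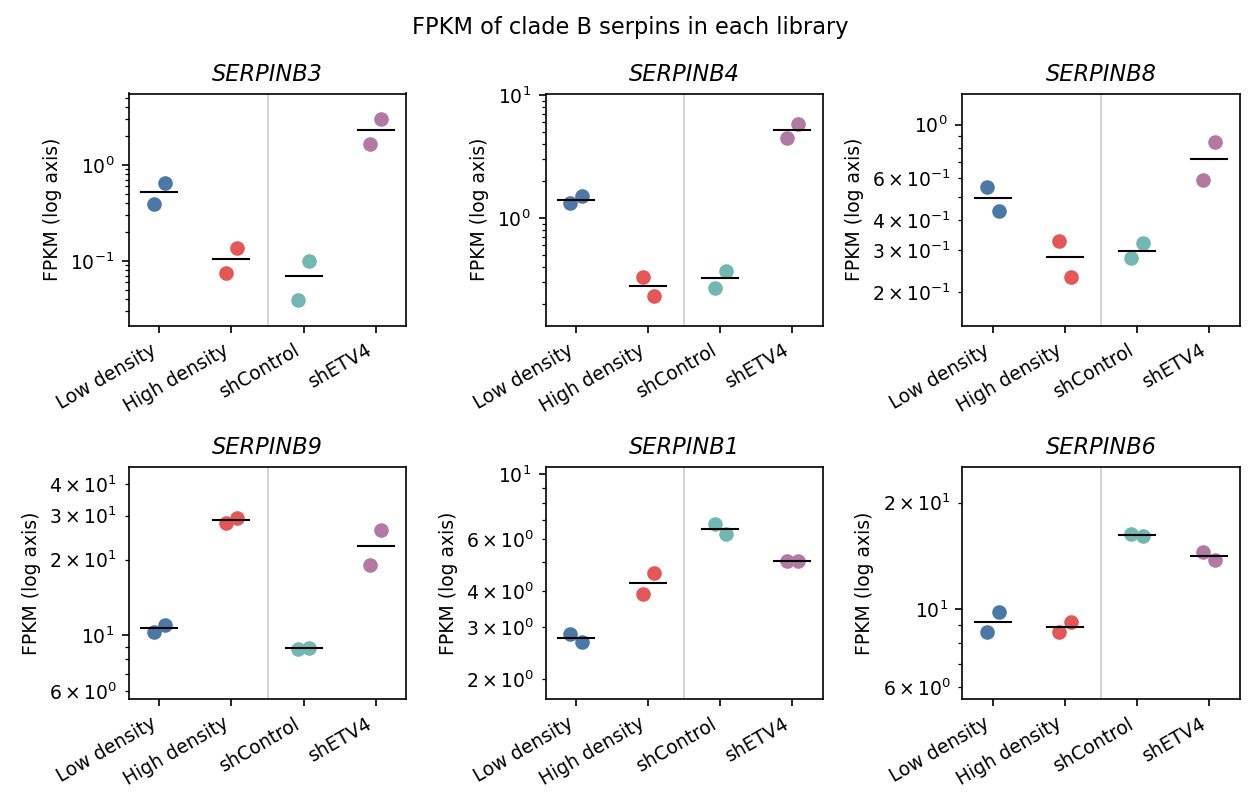
FPKM of each member (y axis, log scale, separate range in each panel) in the 8 libraries, by group (x axis); points are libraries and bars are group means of 2. SERPINB3, SERPINB4 and SERPINB8 are lower at high than at low density and higher with shETV4 than with shControl, SERPINB9 is higher in both, and SERPINB6 differs least.

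SERPINB3, an inhibitor of cysteine proteases such as cathepsins L, K and S, rested on few reads in the control arm, with 5 and 10 counts (exact Poisson 95% intervals 1.62 to 11.7 and 4.80 to 18.4, counting error only). It stood at 0.0394 and 0.1002 FPKM with shControl and at 1.66 and 2.99 FPKM with shETV4, where its counts were 174 and 300. The lower shETV4 library was 16.5 times the higher shControl library, and the group means differed 33.3-fold. The fitted log2 fold change was 4.99 (SE 0.46), and it ranged from 4.47 to 5.61 when single libraries were left out.

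SERPINB4, its near-copy, is known as an inhibitor of chymotrypsin-like serine proteases such as cathepsin G and mast cell chymase. It stood at 0.271 and 0.373 FPKM with shControl (29 and 38 counts) and at 4.49 and 5.85 FPKM with shETV4 (469 and 587 counts). The libraries were again far apart, with the lower shETV4 library 12.1 times the higher shControl library. The group means differed 16.1-fold, and the fitted log2 fold change was 3.99 (SE 0.25). Because the authors' counting could have moved reads between the 2 genes, their counts were also added: 34 and 48 with shControl against 643 and 887 with shETV4, a log2 fold change of 4.24. SERPINB4 exceeded SERPINB3 in all 8 libraries, by 6.87 and 3.72 times in FPKM with shControl and by 2.71 and 1.96 times with shETV4. More cells that make a transcript and more of it per cell cannot be told apart in bulk RNA.

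The rise extended to SERPINB8 and SERPINB9 but was not called for SERPINB1 or SERPINB6. SERPINB8, an inhibitor of the proprotein convertase furin, stood at 0.277 and 0.321 FPKM with shControl and at 0.589 and 0.843 FPKM with shETV4. Both shETV4 libraries lay above both shControl libraries, and the log2 fold change was 1.26 (SE 0.27, adjusted p = 0.0151). With 57 to 162 counts per library, this call did not hold in limma on log2(FPKM + 0.5) without a minimum level (adjusted p = 0.0596). In limma on log2(FPKM + 1) its log2 fold change was 0.40, under the threshold. The span of SERPINB8 overlaps HMSD on the same strand, so reads of the overlap are uncertain, and HMSD lay the other way, at -0.69 (adjusted p = 0.0641).

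SERPINB9, the inhibitor of granzyme B that shields cytotoxic lymphocytes from their own granules, was the most abundant of the risers. It stood at 8.84 and 8.88 FPKM with shControl and at 19.0 and 26.3 FPKM with shETV4. The shControl libraries were nearly equal and the shETV4 libraries were both higher, with a log2 fold change of 1.36 (SE 0.15, adjusted p = 0.00146). This call held under every alternative tried and with each library left out (log2 fold change 1.07 to 1.61).

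SERPINB1, an inhibitor of neutrophil elastase, proteinase 3 and cathepsin G, stood at 6.73 and 6.24 FPKM with shControl and at 5.07 and 5.07 FPKM with shETV4. The shETV4 libraries lay below the shControl libraries, but the log2 fold change of -0.34 (SE 0.11, adjusted p = 0.0645, 95% interval -0.60 to -0.08) was not called. SERPINB6, an inhibitor of cathepsin G and thrombin, stood at 16.3 and 16.1 FPKM with shControl and at 14.5 and 13.8 FPKM with shETV4. Its groups did not overlap either, and its log2 fold change was -0.13 (SE 0.09, adjusted p = 0.308, 95% interval -0.33 to 0.07). The upper ends of both intervals lie far below the values of SERPINB8 and SERPINB9.

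Of the 4 members other than SERPINB3 and SERPINB4, 2 were called after ETV4 KD and both were higher, against 13% of the 17879 genes tested called in either direction, with 5.88% higher and 7.1% lower. Their median log2 fold change was 0.56, beside -0.0012 over all genes tested. No member lay near that median: SERPINB1 and SERPINB6 were at -0.34 and -0.13, and SERPINB8 and SERPINB9 at 1.26 and 1.36. Libraries of the 2 groups did not overlap for 4 of the 4, but this was true of 63.3% of all genes tested, so it tells little about the family. In the 4 genes that were higher after ETV4 KD, shETV4 replicate 2 exceeded replicate 1 in FPKM, and this library also had the lower ETV4 level. With shControl, replicate 2 also exceeded replicate 1 in these 4 genes, for SERPINB9 only slightly (8.88 against 8.84 FPKM). There, however, replicate 2 had the higher ETV4 level (95.1 against 90.8 FPKM). A relation to the ETV4 level of single libraries was not tested.

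**Figure D3:**
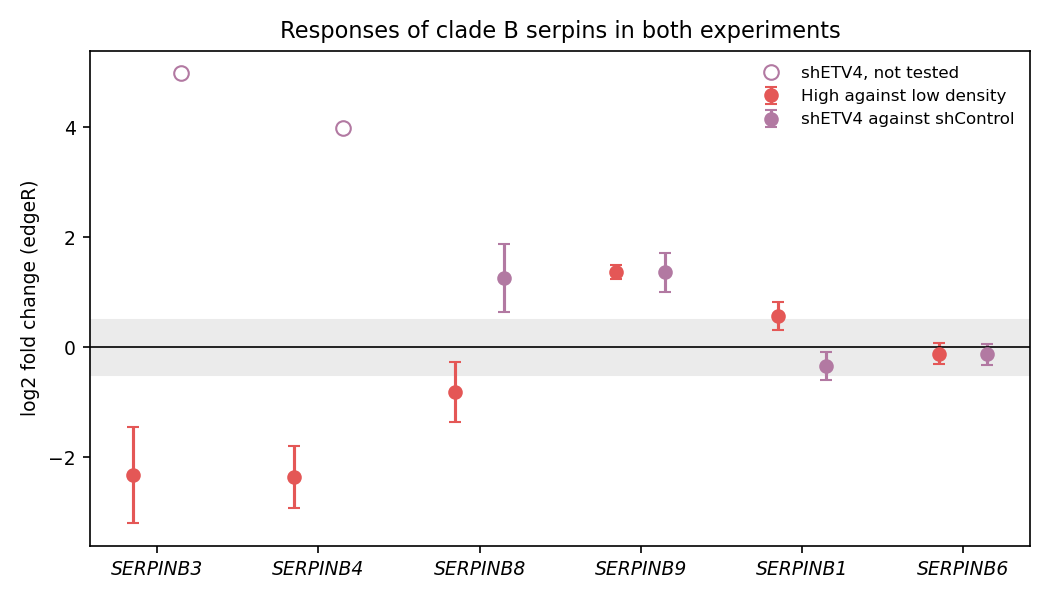
Log2 fold change of each member (y axis) in the crowding and the ETV4 KD comparison; filled points carry 95% intervals of the edgeR fit, open points are the knockdown values of SERPINB3 and SERPINB4, which were not tested, and the grey band marks absolute values up to 0.5. SERPINB3, SERPINB4 and SERPINB8 lie below 0 for crowding and above 0 for ETV4 KD, SERPINB9 lies near 1.4 in both, and SERPINB6 stays inside the band.

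The rule that chose the genes named no change in the crowding comparison, so all 6 members were tested there. Membership did need reads in every library, and the members were chosen with earlier results of these data known. The chromosome 18 genes fell. SERPINB4 stood at 1.33 and 1.50 FPKM at low density and at 0.329 and 0.233 FPKM at high density, without overlap. Its log2 fold change was -2.36 (SE 0.27, adjusted p = 7.84e-07). SERPINB3 stood at 0.395 and 0.646 FPKM at low density and at 0.0747 and 0.135 FPKM at high density, where its counts were 8 and 17. Its log2 fold change of -2.33 (SE 0.42, adjusted p = 1.59e-04) was close to that of SERPINB4. The added counts of both genes went from 169 and 254 to 44 and 46, a log2 fold change of -2.36 (adjusted p = 1.42e-07), so this fall did not depend on how reads were divided between them.

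SERPINB8 stood at 0.550 and 0.436 FPKM at low density and at 0.327 and 0.232 FPKM at high density. The groups were separate but close, and the log2 fold change of -0.81 (SE 0.26, adjusted p = 0.0183) was the least secure call in the family. It was lost without high-density replicate 2 (-0.58, adjusted p = 0.131), without low-density replicate 1 (-0.69, adjusted p = 0.137), with the Wald test of DESeq2 (adjusted p = 0.0620) and in limma on log2(FPKM + 0.5) over all genes (adjusted p = 0.0704).

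None of the chromosome 6 genes was called lower. SERPINB9 stood at 10.3 and 11.0 FPKM at low density and at 27.9 and 29.4 FPKM at high density. It rose with a log2 fold change of 1.37 (SE 0.06, adjusted p = 5.01e-13), and each library left out in turn kept it between 1.33 and 1.42. SERPINB1 stood at 2.85 and 2.68 FPKM at low density and at 3.90 and 4.61 FPKM at high density. The high-density libraries were both higher, with a log2 fold change of 0.57 (SE 0.12, adjusted p = 7.76e-04). Without high-density replicate 2 it was 0.45 (adjusted p = 0.00575), under the threshold of 0.5.

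SERPINB6 stood at 8.60 and 9.83 FPKM at low density and at 8.64 and 9.20 FPKM at high density, and its groups overlapped. The log2 fold change was -0.12 (SE 0.09, adjusted p = 0.326, 95% interval -0.31 to 0.07). In all, 5 of the 6 members were called for crowding, 2 higher and 3 lower, against 16.1% of the 17672 genes tested, with 10.7% higher and 5.47% lower. The same 5 of 6 had libraries that did not overlap, where 70.2% of all genes tested did not. All 6 members passed the filter on low counts in both tables, and SERPINB3 was above its cutoff in 3 of the 4 libraries of each.

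Set side by side, the members fell into different patterns over the 2 experiments, which share no libraries. SERPINB3, SERPINB4 and SERPINB8 were lower at high density and higher with shETV4, SERPINB9 was higher in both, and SERPINB6 was called in neither. SERPINB1 was called higher at high density and was not called with shETV4. ETV4 itself was lower in both comparisons: at high density it stood at 54.2 and 53.9 FPKM against 73.2 and 72.6 FPKM at low density (-0.49, adjusted p = 9.42e-07, under the fold threshold). SERPINB3, SERPINB4 and SERPINB8 thus went opposite ways in 2 comparisons that both had less ETV4 transcript. Whether a response differed between the experiments was not tested. Pearson's r over the 8 libraries, on log2(FPKM + 0.5) centred within each table, was 0.98 between SERPINB3 and SERPINB4, 0.92 between SERPINB3 and SERPINB8 and 0.95 between SERPINB4 and SERPINB8. SERPINB9 had 0.44 with SERPINB3 and 0.31 with SERPINB4. These values describe 8 libraries in 4 groups and are governed by the group differences given above. They include the knockdown libraries, in which the rise of SERPINB3 and SERPINB4 chose these 2 genes. A high r between the pair was therefore partly set by that choice.

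By summed FPKM of the 6 genes, clade B transcript was mostly that of SERPINB9 and SERPINB6. The sum was 24.0 and 26.1 FPKM at low density and 41.2 and 43.8 FPKM at high density, and SERPINB9 made up 42.5% ± 0.506 (SD, n = 2) of it at low density and 67.5% ± 0.491 at high density. With shControl the sum was 32.5 and 32.0 FPKM and with shETV4 it was 45.3 and 54.9 FPKM. SERPINB3 and SERPINB4 together stayed a minor part: SERPINB4 went from 0.999% ± 0.234 to 10.3% ± 0.535 of the sum, and SERPINB3 from 0.217% ± 0.136 to 4.55% ± 1.26. The largest share with shETV4 was that of SERPINB9, at 44.9% ± 4.34, while with shControl it was that of SERPINB6, at 50.2% ± 0.0242.

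**Figure D4:**
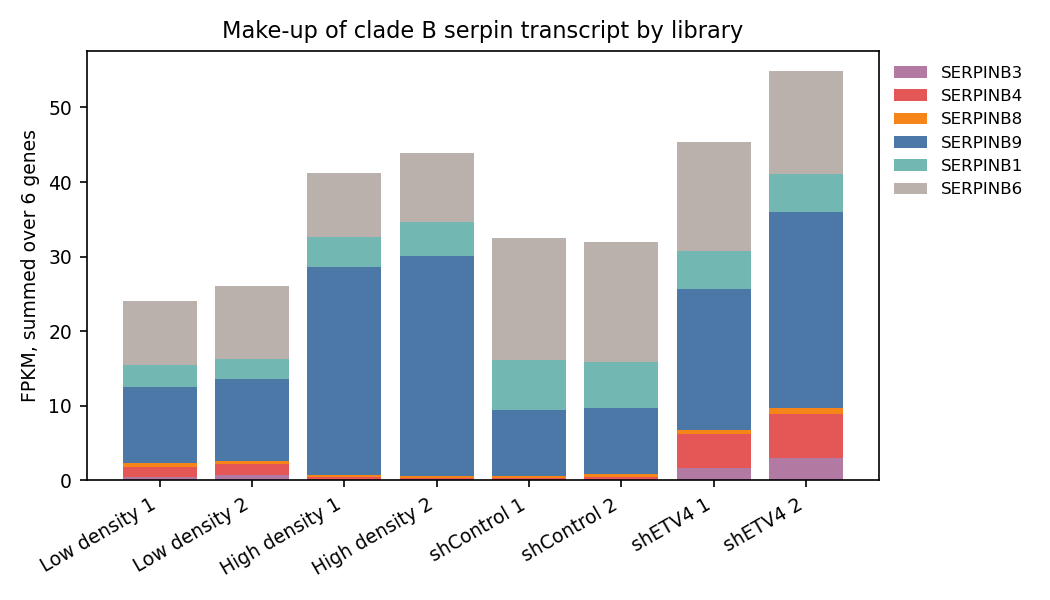
Summed FPKM of the 6 members in each library (y axis, stacked from 0; x axis, libraries by group and replicate), with 1 colour per gene; the tables of the 2 experiments were normalized separately. The sum is 24.0 to 26.1 FPKM at low density against 41.2 to 43.8 at high density, and 32.0 to 32.5 with shControl against 45.3 to 54.9 with shETV4, with SERPINB9 as the largest part of the high-density and shETV4 bars.

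The 250 bases before the RefSeq start sites of SERPINB3 and SERPINB4 differ at 3 bases, an identity of 98.8%, while other pairs of members shared 45.5% to 57.0% of aligned bases there. They are printed because the 2 genes moved together in both comparisons, although their rise after ETV4 KD is what chose them. SERPINB3 is at chr18:63661894-63662143 and SERPINB4 at chr18:63644257-63644506, minus strand of GRCh38.p14, with differing bases in capitals. These coordinates are of another build than those of the genes above.
SERPINB3 promoter: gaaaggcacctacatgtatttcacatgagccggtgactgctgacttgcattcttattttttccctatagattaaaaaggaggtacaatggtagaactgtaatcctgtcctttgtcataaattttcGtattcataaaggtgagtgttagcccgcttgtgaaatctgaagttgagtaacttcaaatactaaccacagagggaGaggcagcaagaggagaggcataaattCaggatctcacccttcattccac
SERPINB4 promoter: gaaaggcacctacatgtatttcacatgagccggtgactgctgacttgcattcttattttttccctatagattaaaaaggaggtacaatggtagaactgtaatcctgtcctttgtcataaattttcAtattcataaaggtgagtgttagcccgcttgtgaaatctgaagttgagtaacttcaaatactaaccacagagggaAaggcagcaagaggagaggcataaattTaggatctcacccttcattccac

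The promoters of the other called members in the knockdown look unlike these. SERPINB8 is at chr18:63969831-63970080 on the plus strand and SERPINB9 at chr6:2903310-2903559 on the minus strand, both in GRCh38.p14. Capitals mark GGAA, the core letters of ETS sites, as read on the printed strand or its complement, and TGANTCA, the letters of AP-1 sites.
SERPINB8 promoter: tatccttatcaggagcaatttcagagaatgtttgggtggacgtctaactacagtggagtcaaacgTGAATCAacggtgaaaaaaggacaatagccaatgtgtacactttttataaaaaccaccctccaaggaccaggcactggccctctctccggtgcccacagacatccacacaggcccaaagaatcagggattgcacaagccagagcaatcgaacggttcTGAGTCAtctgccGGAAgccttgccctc
SERPINB9 promoter: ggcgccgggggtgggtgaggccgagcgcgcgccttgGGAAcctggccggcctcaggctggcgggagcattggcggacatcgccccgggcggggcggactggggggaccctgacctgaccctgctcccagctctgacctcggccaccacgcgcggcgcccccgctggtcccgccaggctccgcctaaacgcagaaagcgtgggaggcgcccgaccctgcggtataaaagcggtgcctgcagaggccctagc

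On both strands, GGAA matched at 191 and 6 bases before the start in SERPINB3 and at 191, 53 and 6 bases in SERPINB4, where 1 of the 3 differing bases makes the added match. SERPINB8 held 1 match, at 15 bases, and SERPINB9 held 1, at 214 bases. GGAA is short and 92.7% of 35116 promoters of this length held it, so its presence sets no member apart. The longer AGGAAG, which contains GGAA and occurred in 28.7% of promoters, and CCGGAAGT, which also contains it and occurred in 3.42%, matched in none of the members. TGANTCA, found in 6.57% of promoters, matched only SERPINB8 among the members, at 185 and 28 bases before the start. A match or its absence describes letters in this window, and no binding was measured.

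The genes around the members gave no common direction. Of all genes tested, 16.1% were called for crowding and 13% after ETV4 KD. Within 200 kb of a member on chromosome 18, HMSD was the only other gene tested, and it was called in neither comparison (log2 fold change 0.47 for crowding, adjusted p = 0.262). On chromosome 6, 1 of the 10 neighbours tested for crowding was called, the kinase gene RIPK1, which fell by 0.78 on the log2 scale (adjusted p = 1.32e-07) from 8.23 to 4.97 FPKM. After ETV4 KD, 2 of the 8 neighbours tested were called: NQO2, a quinone reductase, was higher (0.51, adjusted p = 0.0118), and the noncoding LINC01011 was lower (-0.93, adjusted p = 0.0404). LINC01011 overlaps the 5′ part of the span of NQO2 on the same strand, so reads of the overlap are uncertain.

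Of 8 further names of the clade looked up, SERPINB9P1, a pseudogene beside SERPINB9, was in both tables and SERPINB5, known as maspin, in the knockdown table. SERPINB9P1 had 11 and 7 counts at low density and 8 and 29 at high density, with a log2 fold change of 0.86 (adjusted p = 0.266), and its groups overlapped. After ETV4 KD it had 3 and 8 counts against 9 and 5 with shControl and was too low to test. SERPINB5 had 8 and 9 counts with shControl and 2 and 6 with shETV4, also too low to test. The other 6 names were in neither table.

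Among serpins of other clades, which are mostly secreted, 9 were tested after ETV4 KD, and 2 were called higher and 0 lower. Among them SERPINF1, known as pigment epithelium-derived factor, went from 7.97 ± 0.280 to 14.8 ± 1.62 FPKM (SD, n = 2, log2 fold change 0.90, adjusted p = 0.00331). The median of the 9 was 0.17, so the rise was not shared by most of them. For crowding, 8 were tested, with 2 called higher and 2 lower and a median of -0.24. The shares over all genes tested were 10.7% higher and 5.47% lower for crowding, and 5.88% and 7.1% after ETV4 KD. SERPINE2, which inhibits thrombin and plasminogen activators, fell by 0.69 on the log2 scale (adjusted p = 1.75e-08) and SERPINF1 rose by 0.87 (adjusted p = 5.79e-07). SERPINF1 was thus higher in both comparisons, as was SERPINB9.

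The proteases that clade B serpins are known to inhibit, with their near relatives, gave 0 called higher and 3 called lower of 17 tested after ETV4 KD, with a median log2 fold change of -0.20. Over all genes tested, 5.88% were called higher and 7.1% lower. Of the 17, 13 had a log2 fold change below 0, and the list was not tested as a set. CTSV, cathepsin V, was at 0.49 (adjusted p = 0.00901), just under the fold threshold. The furthest below 0 was PRSS8, which encodes the membrane protease prostasin and fell by 1.31 (adjusted p = 2.11e-04), from 43.6 ± 3.05 to 17.6 ± 0.735 FPKM. PLAT, the tissue plasminogen activator, had a log2 fold change of -0.70 (adjusted p = 0.0235) and KLK8, a kallikrein, of -0.55 (adjusted p = 0.0494). FURIN, the target of SERPINB8, was at -0.13 (adjusted p = 0.305) and CTSL, a target of SERPINB3, at -0.02 (adjusted p = 0.915), so neither was called. For crowding, 3 of 18 were called higher and 3 lower, with a median of -0.01, against 10.7% higher and 5.47% lower over all genes tested. PLAT (-1.68, adjusted p = 1.18e-07), PLAU, the urokinase gene (-1.04, adjusted p = 3.11e-09), and ST14, matriptase (-0.74, adjusted p = 3.09e-06), fell, and CTSB, cathepsin B, rose (0.83, adjusted p = 1.70e-08). CTSV, FURIN and CTSL are named after their values were seen.

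Inhibitors of other families gave no call after ETV4 KD, with 0 of 9 tested and a median log2 fold change of 0.07. Of all genes tested, 13% were called after ETV4 KD, and 10.7% were called higher for crowding. For crowding, 2 of 8 were called, both higher: A2ML1, an alpha-2-macroglobulin-like inhibitor of skin, by 1.04 (adjusted p = 2.86e-06) and SPINK5, an inhibitor of skin kallikreins, by 0.51 (adjusted p = 9.34e-04).

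**Figure D5:**
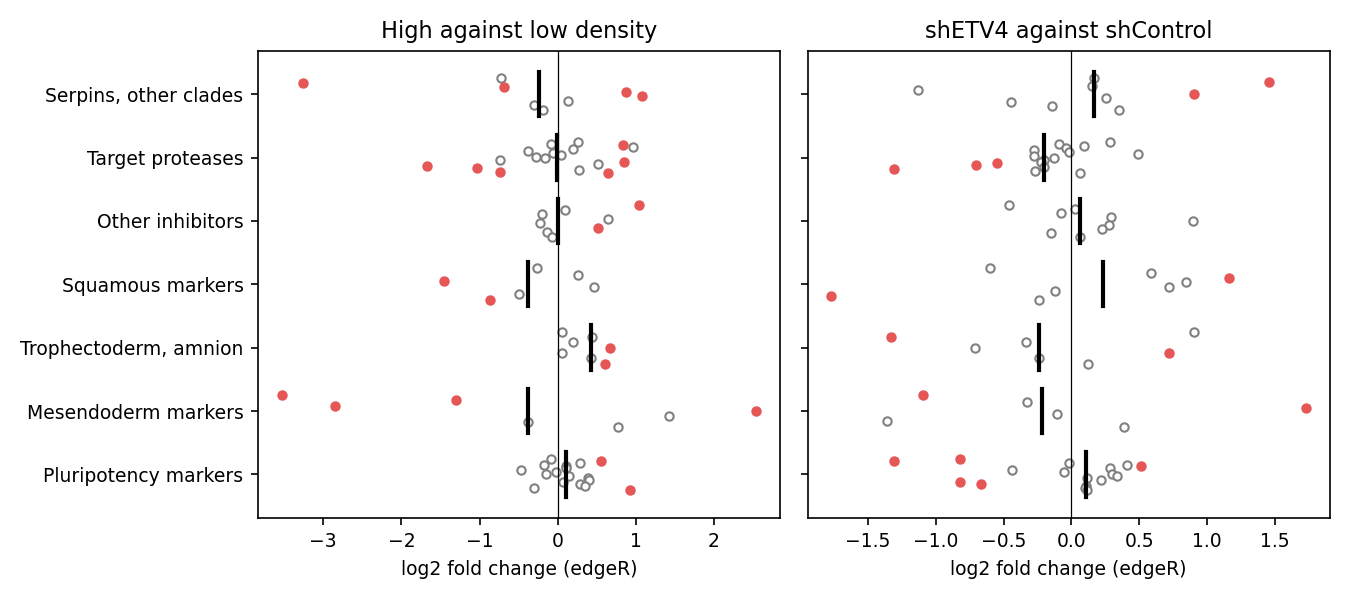
Log2 fold changes (x axis, edgeR) of the genes of each list (y axis) for crowding (left) and ETV4 KD (right); filled points were called, open points were not, and vertical bars are medians over the tested genes of a list. The medians of the 7 lists drawn lie between -0.38 and 0.42 for crowding and between -0.24 and 0.23 for ETV4 KD.

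Markers of other cell types that such cultures could hold were set beside the members. For all marker lists here and below, the shares over all genes tested were 5.88% higher and 7.1% lower after ETV4 KD. For crowding they were 10.7% and 5.47%. Of 20 squamous and surface ectoderm markers, the tissue in which SERPINB3 and SERPINB4 are best known, 8 were tested after ETV4 KD, with 1 called higher (GRHL3, log2 fold change 1.17, adjusted p = 0.0243) and 1 lower (PKP1, -1.77, adjusted p = 0.00549). Both are below 1 FPKM and are named after their values were seen. Their summed level was 7.04 to 7.22 FPKM with shControl and 6.39 to 6.53 FPKM with shETV4, a sum in which SFN, stratifin, was the largest part. The median log2 fold change of the 8 was 0.23, with 4 of the 8 below 0. The defining genes TP63, KRT5 and KRT14 were not in the knockdown table, which holds only genes with at least 1 read in every library. For crowding, 6 were tested, with 0 called higher and 2 lower, among them SFN, which fell by 0.86 (adjusted p = 0.00244). The summed level was 4.66 to 4.71 FPKM at low density and 4.05 to 4.24 FPKM at high density.

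Trophectoderm and amnion markers went both ways after ETV4 KD: of 7 tested, IGFBP3, a binding protein for insulin-like growth factors, was higher (0.72, adjusted p = 0.0170) and GABRP, a GABA receptor subunit, lower (-1.33, adjusted p = 0.00864). The summed level was 14.7 to 15.7 FPKM with shControl and 13.5 to 14.4 FPKM with shETV4. For crowding it was 11.1 to 11.4 FPKM at low density and 16.8 to 17.7 FPKM at high density, and 2 of 7 were called higher, the transcription factor gene TFAP2C (0.61, adjusted p = 5.03e-06) and IGFBP3 (0.67, adjusted p = 6.45e-04). TFAP2C was the largest part of this sum, with means of 5.87 FPKM at low density and 9.31 FPKM at high density. Other markers of the list, among them GATA3, TFAP2A and CDX2, were not in the crowding table. Of the mesendoderm markers, 7 were tested for crowding, with 1 called higher and 3 lower, and 6 after ETV4 KD, with 1 called higher and 1 lower. The homeobox gene HHEX was the higher one for crowding (2.54, adjusted p = 2.89e-05) and the GATA factor gene GATA4 after ETV4 KD (1.73, adjusted p = 0.0209), both below 1 FPKM and named after their values were seen. Of those called lower for crowding, FOXA2 (-2.85, adjusted p = 1.32e-04) and CXCR4 (-1.30, adjusted p = 0.0248) were also below 1 FPKM. They too are named after their values were seen. CER1, an antagonist of NODAL and the most abundant of these markers, had a log2 fold change of -3.53 for crowding (adjusted p = 3.86e-08) and -1.09 after ETV4 KD (adjusted p = 0.0480).

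Of 17 pluripotency markers, 1 was called higher and 4 lower after ETV4 KD. The median log2 fold change of the 17 was 0.10, with 7 of the 17 below 0. POU5F1 was at 0.30 (adjusted p = 0.0505), SOX2 at 0.22 (adjusted p = 0.0688) and NANOG at -0.44 (adjusted p = 0.0165), and none of these was called. The shares over all genes tested were 5.88% higher and 7.1% lower. DPPA2, a germ and stem cell chromatin factor, was at -1.31 (adjusted p = 0.00102), the DNA methyltransferase gene DNMT3B at -0.82 (adjusted p = 4.64e-04), the NODAL co-receptor gene TDGF1 at -0.82 (adjusted p = 3.86e-04) and the telomere factor gene TERF1 at -0.67 (adjusted p = 8.81e-04), while LIN28A, an RNA-binding protein gene, was at 0.51 (adjusted p = 0.00228). For crowding, 2 were called, both higher, among them DPPA2 (0.55, adjusted p = 9.18e-04). The part of any other cell type in the changes of the clade B genes was not tested.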

How the data were processed

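RNA was sequenced in 8 libraries of H9 hESCs, 2 in each of the groups small, crowded, Ctrl and ETV4 KD, taken from the sample labels. Per the study's methods and the submitters' processing notes, poly-A RNA went into stranded libraries, and paired reads were trimmed (Trimmomatic), aligned to GRCh37 (HISAT2 2.1.0) and assigned to known transcripts (StringTie 2.1.3b). The read counts were deposited by the authors without normalization, and the FPKM values were scaled by the authors to transcript length and mapped reads. The sources used here give no strand setting for the counting. Of the deposited columns, 16 with other per-sample values were not used, nor were those with the authors' own fold changes, p-values and group means.

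Each table was tested alone in R 4.3.3 with the robust quasi-likelihood fit of edgeR 4.0.16, after filterByExpr and TMM scaling, over 17672 genes for crowding and 17879 for ETV4 KD. The SE was obtained as the size of the log2 fold change over the root of F. With 2 libraries against 2, a permutation test of a single gene cannot go below 0.333, and p-values rest on dispersion shared across genes (biological coefficient of variation 6.83% for crowding and 9.93% for ETV4 KD). Library totals keep counting error small except for SERPINB3, SERPINB4 and SERPINB8. Scripts were tested on simulated data. Counts of replicate libraries were compared by chi-square, which came to 5.78 to 23.0 per degree of freedom, so none is a duplicate. Replicate numbers did not mark shared batches in the labels.

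The members and gene lists were chosen with earlier results of these data known, as were the motifs. Named genes are the members, ETV4, other clade B genes in a table, called neighbours within 200 kb, and of each list at most the 4 called genes with the largest absolute log2 fold change and a mean of at least 1 FPKM; exceptions are marked, and markers of cell type and the gene overlapping SERPINB8 were added. A few genes named by this rule are not reported here. No list was tested as a set. Alternatives were the size factors and the Wald test of DESeq2 1.42.0, no filter, a minimum of 10 counts per library, a replicate block, limma 3.58.1 on log2(FPKM + 0.5) with a mean FPKM of 0.5 or more, pseudocounts of 0.1 and 1, limma on all genes, an absolute log2 fold change over 1, added counts of SERPINB3 and SERPINB4, and each library left out. Positions are from GENCODE 44 on GRCh37 (18598 of 20344 symbols matched), and promoters are from RefSeq on GRCh38.p14.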

Additional observations from a re-analysis of the deposited data

How the results depend on the processing

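Of 152 values of single members under an alternative, 134 kept their direction and side of the threshold or moved by less than the replicate spread. SERPINB6 for crowding, never called, turned from -0.12 to 0.00062 without low-density replicate 2 (-0.22 to 0.00062 over left-out libraries). For crowding, SERPINB1 missed the threshold of 0.5 in limma on log2(FPKM + 1) (0.48) and SERPINB8 lost its call with the DESeq2 Wald test (-0.81) and in limma on all genes (-0.35). After ETV4 KD, SERPINB8 lost its call in limma on log2(FPKM + 1) (0.40) and on all genes (0.60). In limma the untested rise of SERPINB3 was 2.27, 3.80 and 1.61 with pseudocounts of 0.5, 0.1 and 1 and 2.27 on all genes, that of SERPINB4 was 2.78, 3.64, 2.22 and 2.78, and the added counts gave 4.24: a pseudocount compresses low values.

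Members called for crowding were 3 at an absolute log2 fold change over 1, 3, 3 and 2 in limma with pseudocounts of 0.5, 0.1 and 1, where SERPINB3 and SERPINB8 were below the minimum level, and 3 to 5 with a library left out. After ETV4 KD, 1 of the 4 tested members was called in limma with a pseudocount of 1 and 1 on all genes, and 2 with any library left out. Genes called for crowding were 1135 at the higher fold threshold and 1724, 1272 and 1776 in limma with pseudocounts of 0.5 and 1 and on all genes, and 2407 to 3408 with a library left out. After ETV4 KD they were 761, 1325 with a pseudocount of 1, 1052 on all genes, and 1587 to 3390. Left-out libraries gave SERPINB1 0.45 to 0.67 and SERPINB8 -1.08 to -0.58 for crowding.

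Deviations of same-numbered libraries had a correlation of -0.041 for crowding and 0.0856 for ETV4 KD. Values near 0 do not exclude a shared batch or pairing, because each deviation comes from a mean of only 2 libraries. With the replicate block, 5 members were called for crowding and 2 after ETV4 KD, of 2874 and 2901 genes called, and no member's call changed. Without it, 2851 and 2321 genes were called, so the block mattered more for ETV4 KD. There SERPINB1 had an adjusted p of 0.0148 in the edgeR test with the block, at a log2 fold change of -0.34, under the fold threshold. Of the 5 genes most like SERPINB3, 2 were kept with pseudocounts of 0.1 and of 1, and of those most like SERPINB4, 3 and 3. SERPINB3 had under 10 counts in 1 library of each table and was not fitted with that minimum. With 1 library left out, the lone library of a group was taken to vary like the other group. Depth limits SERPINB3 most, with 5 to 17 counts in its low groups.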

Other observations

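Among the 5 genes whose centred log2(FPKM + 0.5) over the 8 libraries correlated most with that of SERPINB3, among 13620 genes compared, were RGS16, SCNM1, ZNHIT1 and IFRD1, with Pearson's r from 0.991 (IFRD1) to 0.998 (RGS16). RGS16, a regulator of G-protein signalling, was at 4.53 FPKM with shControl and 9.24 FPKM with shETV4, and at 4.79 FPKM at low density and 3.63 FPKM at high density. For SERPINB4 they were TNFRSF12A, ALCAM, ADM, NT5C3A and TFIP11, with r from 0.996 (TFIP11) to 0.998 (TNFRSF12A and ALCAM). ADM, which encodes the peptide hormone adrenomedullin, was at 22.7 FPKM with shControl and 121 FPKM with shETV4, and at 46.6 FPKM at low density and 19.8 FPKM at high density. Of the genes named, RGS16 for SERPINB3 and ALCAM for SERPINB4 stayed in the list under all 3 pseudocounts. Such r values describe 8 libraries that fall into 4 groups and share their depth and processing. They also use the knockdown values that chose SERPINB3 and SERPINB4.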
